A study of Drosophila melanogaster with 2 samples.

Results

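Photoreceptor fate genes were examined in single cells of the larval eye-brain complex of *Drosophila*. The set holds 10 genes of 15902 measured features, chosen by name as regulators or surface proteins of photoreceptor fate: *gl*, *ro*, *sens*, *ato*, *lz*, *svp*, *sev*, *phyl*, *B-H1* and *chp*. The choice was made with earlier results of these data known, and all 10 genes were present in the data. They were read in eye field cells, defined as cells with at least 1 unique molecular identifier (UMI, a tag that marks 1 captured RNA molecule) of *eya* and none of *sim*. These cells were split into those with and those without a UMI of *elav*, an RNA-binding protein gene that is on in neurons, including differentiating photoreceptors.

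The study labels 2 genotypes, mirr>ND-42 RNAi (RNAi line BL28894) and mirr>OreR, with 1 library each. Both are of brain and eye disc at 120 h and 25 °C, and both names carry *mirr*, for a Gal4 driver active in the dorsal eye, although the control is elsewhere called OreR. *ND-42* encodes an accessory subunit of mitochondrial complex I, and the driver limits its silencing to the *mirr* domain. The deposited tables of both genotypes hold identical values for the same 33552 cell barcodes, all of which they share. They were therefore taken as 1 library whose genotype is open, and no comparison between genotypes was made. The barcodes name no sample, so that all cells are of 1 library was assumed and could not be checked. With 1 library there is no replicate check, so no p-value is given. Each interval is a 95% interval for counting error only.

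In the eye disc, differentiation follows a furrow that sweeps across the epithelium. The proneural factor Ato selects the founder photoreceptor R8, in which Sens maintains the fate. R8 then recruits the outer photoreceptors, R7 and the cone cells, largely through EGF receptor signalling. Rough (*ro*) acts in R2 and R5, Seven-up (*svp*) in R3, R4, R1 and R6, and BarH1 (*B-H1*) in R1 and R6. The Runx factor Lozenge (*lz*) acts in the later-recruited cells, in which R7 fate needs the receptor tyrosine kinase Sevenless (*sev*). Glass (*gl*) is a zinc finger factor needed behind the furrow in all photoreceptors. Phyllopod (*phyl*) is an adaptor that brings the repressor Tramtrack (*ttk*) to the ubiquitin ligase Sina, and Chaoptin (*chp*) is a surface protein of photoreceptors.

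The table held 500 to 333220 UMIs per cell, with a median of 4092. There were 4370 eye field cells, 13.0% of all cells, with a median of 10191 UMIs. Of them, 3192 had *elav* (median 11591.5 UMIs) and 1178 did not (median 7366.5 UMIs). Because deeper cells give more genes a UMI, shares are also given after each cell was thinned to 3000 UMIs, which left 2998 eye field cells with *elav* and 963 without. The gate rests on few molecules. *so*, another eye field gene, had a UMI in 40.0% of the eye field cells and in 3.43% of all other cells. Among eye field cells with *elav*, 33.9% also had the synaptic gene *nSyb*, 18.1% the neuroblast gene *wor* and 4.0% the glial gene *repo*. These shares were 8.7%, 5.0% and 2.5% in eye field cells without *elav*. Cells called as doublets made up 29.0% of the cells with *elav* and 4.5% of those without. A UMI of *elav* was also found in 66.5% of glia without *eya*, so that a single UMI of *elav* does not identify a neuron. The part of free RNA and doublets in the shares below was not tested beyond the alternatives given.

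Any of the 10 members was found in 73.2% of eye field cells with *elav* (71.6% to 74.7%), in 58.1% of those without *elav* (55.2% to 60.9%) and in 33.1% of all other cells (32.6% to 33.7%). At equal depth the shares were 42.4%, 38.5% and 23.8%. At equal depth the gap between eye field cells with and without *elav* was thus smaller, with intervals that overlapped (40.7% to 44.2% and 35.4% to 41.7%), and both stayed above all other cells (23.1% to 24.4%). *phyl*, *svp* and *B-H1* were widely found outside the eye field. With the other 7 members alone, chosen after the values were seen, the shares at equal depth were 25.0% with *elav*, 23.4% without *elav* and 3.69% in all other cells.

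The number of members per cell followed the same order. At equal depth, 2 or more members were rare: exactly 2 were found in 9.21% of eye field cells with *elav*, 7.37% of those without and 1.98% of all other cells. Exactly 3 were found in 3.24%, 1.66% and 0.179%. In the unthinned data up to 9 members occurred in a single eye field cell, in 2 cells, where depth and doublets cannot be told apart from joint expression.

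*ato* and *sens* are the genes of the founder cell. *ato* (FBgn0010433, chromosome 3R, 8278052 to 8279274, plus strand) is a gene of a single exon. It had a UMI in 333 of 3192 eye field cells with *elav* (10.4%, 9.39% to 11.5%) and in 99 of 1178 without (8.40%, 6.88% to 10.1%). At equal depth the shares were 3.30% with *elav* (2.69% to 4.01%) and 4.98% without (3.70% to 6.55%), with overlapping intervals. Its pooled level was 0.132 UMIs per 10000 with *elav* and 0.167 without, a ratio of 0.79 (0.67 to 0.92). *ato* was the only member whose interval lay below 1. *sens* (FBgn0002573, 3L, 13396228 to 13401125, minus strand) encodes a zinc finger protein and was found in 132 eye field cells with *elav* (4.14%) and 22 without (1.87%). At equal depth 1.33% and 0.935% of the cells had it, with intervals that overlapped. Its UMIs were concentrated, and 10 cells held 25.3% of all 387.

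*gl* (FBgn0004618, 3R, 18367927 to 18372738, minus strand) was found in 1129 eye field cells with *elav* (35.4%, 33.7% to 37.1%) and in 274 without (23.3%, 20.9% to 25.8%). In 71.2% of the positive cells with *elav* and 56.9% of those without, it had at least 2 UMIs. At equal depth its shares were 18.0% (16.7% to 19.5%) with *elav* and 14.1% (12.0% to 16.5%) without. The pooled level was 0.790 UMIs per 10000 with *elav* and 0.574 without, 1.38-fold higher (1.27 to 1.49), and 1.29-fold higher (1.10 to 1.5) at equal depth. In the mean over cells, which gives each cell the same weight, the ratio was 1.03.

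*ro* (FBgn0003267, 3R, 26876771 to 26881171, minus strand) had a UMI in 257 eye field cells with *elav* (8.05%) and 38 without (3.23%). At equal depth the shares were 2.74% (2.18% to 3.38%) and 1.56% (0.874% to 2.56%). The level was 0.0937 UMIs per 10000 with *elav* and 0.0846 without, a ratio of 1.11 (0.90 to 1.38). The gene overlaps *CG5500* on the other strand.

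*svp* (FBgn0003651, 3R, 12258737 to 12302785, plus strand) encodes a nuclear receptor. It was found in 497 eye field cells with *elav* (15.6%, 14.3% to 16.9%) and in 48 without (4.07%, 3.02% to 5.37%). At equal depth the shares were 6.07% (5.24% to 6.99%) and 1.97% (1.19% to 3.06%), without overlap of the intervals. Its level was 0.245 UMIs per 10000 with *elav* and 0.0737 without, 3.33-fold higher (2.68 to 4.17), and 3.77-fold higher (2.56 to 5.77) at equal depth. Since 7 other annotated genes lie within *svp* on its strand, its reads and theirs may not be fully separated.

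Among the genes of the later-recruited cells, *sev* (FBgn0003366, X, 11071441 to 11086299, minus strand) was found in 325 eye field cells with *elav* (10.2%) and 59 without (5.01%). Its level was 1.58-fold higher with *elav* (1.27 to 1.98), and 1.68-fold higher (1.06 to 2.78) at equal depth. In the mean over cells the ratio was 0.997. An antisense RNA gene overlaps *sev*. *lz* (FBgn0002576, X, 9284649 to 9303636, plus strand) had a UMI in 328 cells with *elav* (10.3%) and 88 without (7.47%), and at equal depth in 2.43% (1.91% to 3.05%) and 3.53% (2.46% to 4.90%). Its ratio of levels was 1.04 in pooled UMIs (0.85 to 1.28), 0.67 at equal depth (0.44 to 1.03) and 0.60 in the mean over cells. *B-H1* (FBgn0011758, X, 17397478 to 17403278, plus strand) encodes a homeodomain protein. It was found in 559 cells with *elav* (17.5%) and 136 without (11.5%), and at equal depth in 4.603% (3.88% to 5.42%) and 5.19% (3.88% to 6.79%). Its level was 1.29-fold higher with *elav* in pooled UMIs (1.11 to 1.5) but 0.90-fold (0.67 to 1.23) at equal depth, so its direction turned between these measures.

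*phyl* (FBgn0013725, 2R, 14427336 to 14432337, minus strand) was found in 1499 eye field cells with *elav* (47.0%) and 343 without (29.1%). At equal depth 17.7% and 15.5% of the cells had it, with overlapping intervals. Its level was 0.539 UMIs per 10000 with *elav* and 0.554 without, a ratio of 0.97 (0.89 to 1.06), and 1.11 (0.95 to 1.31) at equal depth. *chp* (FBgn0267435, 3R, 31204180 to 31210730, minus strand) was near the floor of detection, in 71 cells with *elav* (2.22%) and 13 without (1.10%). At equal depth only 10 and 4 cells had a UMI, 0.334% and 0.415%. These shares were near the 0.309% of all other cells, so that *chp* was not detectable above background at this depth. Positions are those of the Ensembl annotation of the BDGP6 assembly.

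**Figure D1:**
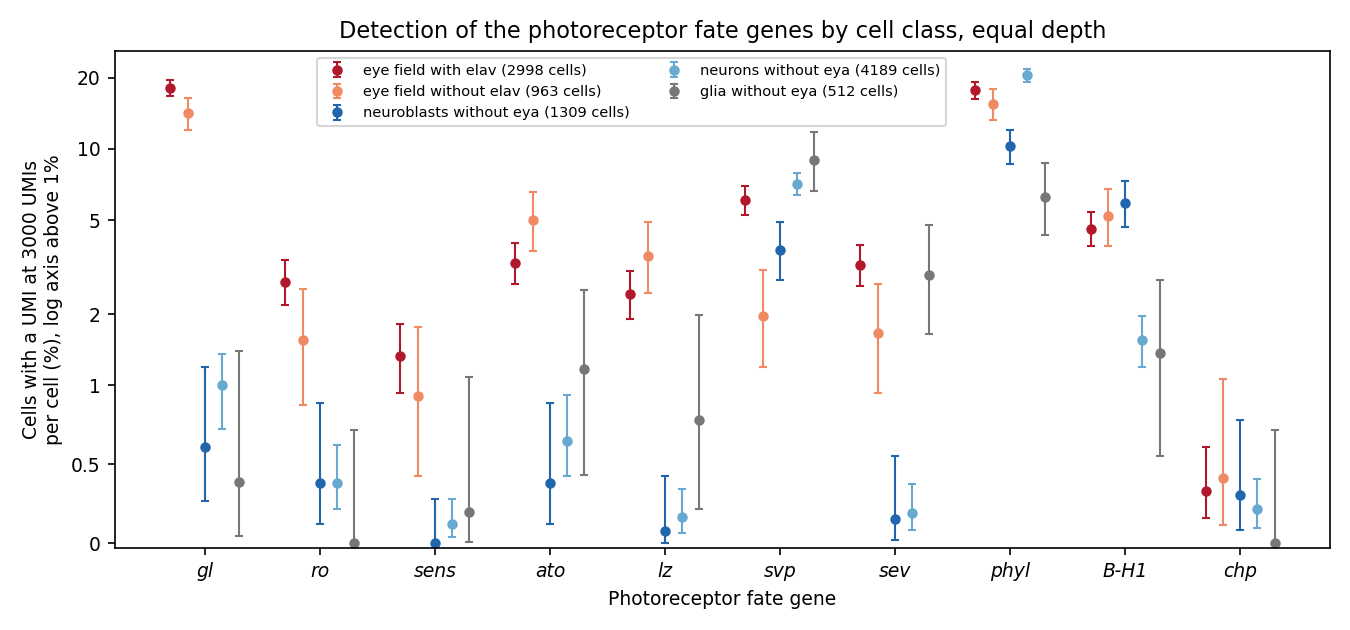
Percent of cells with a UMI of each member after thinning to 3000 UMIs per cell, by cell class, with exact 95% binomial intervals for counting error (the axis is linear up to 1% and logarithmic above). *gl* was found in 18.0% and 14.1% of eye field cells with and without *elav*, and in at most 1.003% of neuroblasts, neurons and glia without *eya*, while *phyl*, *svp* and *B-H1* were as frequent in some of these classes.

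Over all features with at least 100 UMIs in the eye field, 681 of 8220 (8.28%) were at least 2-fold higher with *elav* and 25 (0.304%) at least 2-fold lower. Of the members, only *svp* was at least 2-fold higher and none was at least 2-fold lower, close to these shares. The interval of the ratio lay above 1 for 6 members (*gl*, *sens*, *svp*, *sev*, *B-H1* and *chp*) and below 1 for *ato*. At equal depth it lay above 1 for 3 members (*gl*, *svp* and *sev*) and below 1 for *ato*, while *sens* stood at 1.15 (0.62 to 2.25) and *chp* at 1.20 (0.38 to 4.99). Over all features, in pooled UMIs, it lay above 1 for 29.2% and below 1 for 16.0%. The median log2 ratio of the members was 0.41 in pooled UMIs and -0.07 in the mean over cells, against 0.06 and 0.02 over all features.

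**Figure D2:**
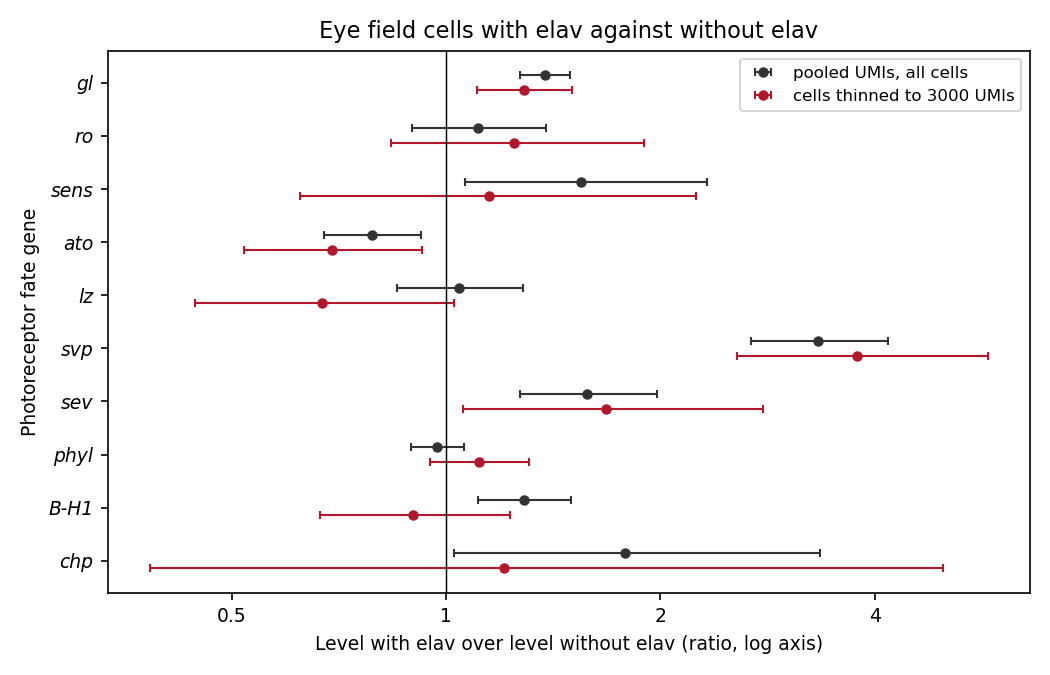
Level of each member in eye field cells with *elav* over that without *elav* (ratio on a log axis), from pooled UMIs of all cells and from cells thinned to 3000 UMIs, with exact 95% intervals. *svp* stood at 3.33 and 3.77, *ato* below 1 at 0.79 and 0.69, and *B-H1* on both sides of 1 at 1.29 and 0.90.

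The amount of *elav* was then read at equal depth, a split added after the data were seen. Eye field cells had 0 (2118 cells), 1 (835 cells), 2 or 3 (653 cells) or at least 4 (355 cells) UMIs of *elav* among 3000. *svp* was found in 2.69%, 4.79%, 7.504% and 15.5% of them along this order, and the intervals of the lowest (2.04% to 3.47%) and highest (11.9% to 19.7%) tiers did not overlap. In all other cells *svp* went the same way, with 3.10%, 4.45%, 6.12% and 7.31%. *gl* was found in 14.6%, 20.6%, 19.8% and 18.9% of eye field cells, so that most of its difference lay between no and 1 UMI of *elav*. *lz* was found in 3.02%, 3.47%, 1.68% and 0.845%, the last from 3 cells, and the intervals of the lowest (2.33% to 3.84%) and highest (0.175% to 2.45%) tiers overlapped. In all other cells *lz* had 0.830%, 0.540%, 0.292% and 0.0894%. *ato* had 4.01%, 3.83%, 3.37% and 2.25%, with overlapping intervals. Markers of other cells moved along the same tiers. The synaptic gene *nSyb* was found in 7.22%, 12.1%, 21.3% and 27.0% of the eye field cells and the neuroblast gene *wor* in 3.16%, 7.07%, 12.4% and 10.4%. Their part in the trend of *svp* was not tested.

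**Figure D3:**
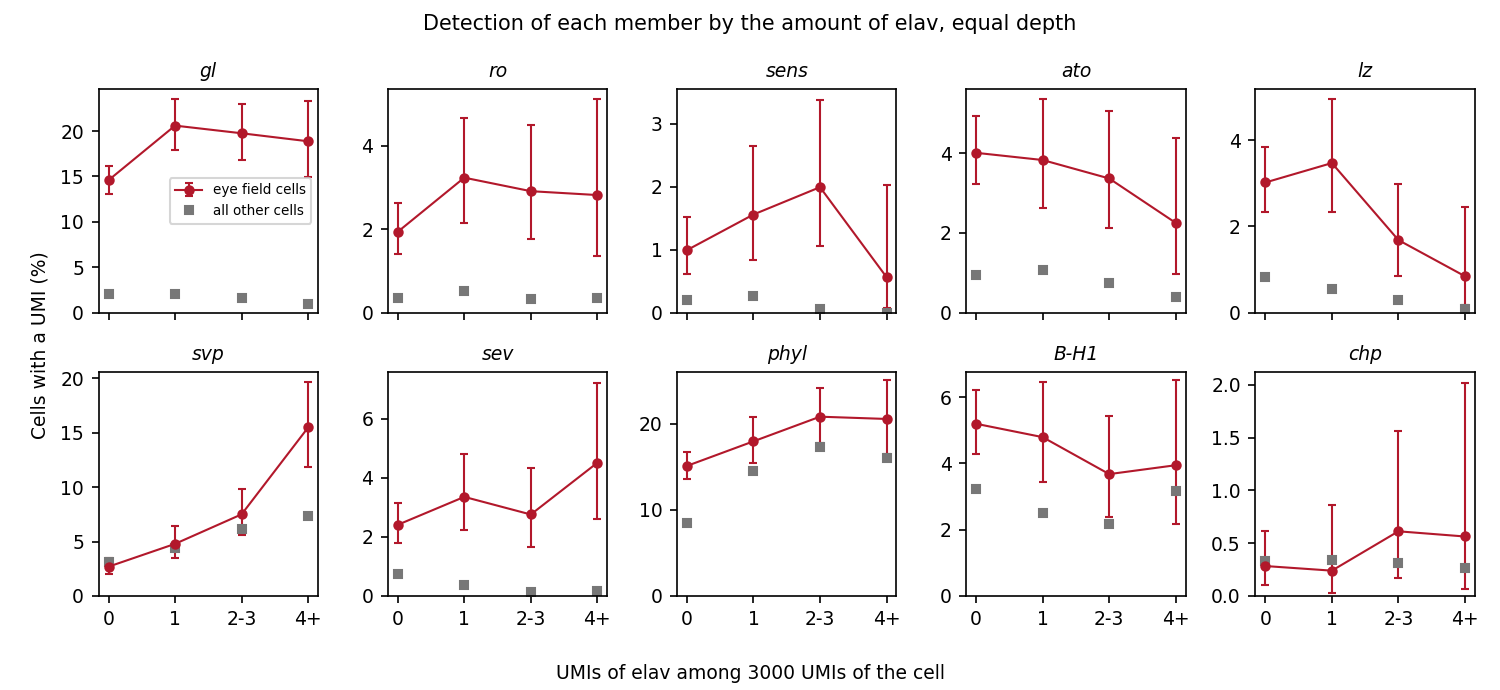
Percent of cells with a UMI of each member by UMIs of *elav* among 3000 UMIs of the cell (low to high), in eye field cells (points with exact 95% binomial intervals) and in all other cells (squares). *svp* had 2.69% in the lowest and 15.5% in the highest tier of eye field cells, while *lz* had 3.02% and 0.845% with overlapping intervals.

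Levels in eye field cells were set against those in all other cells. Of 10023 features, 562 (5.61%) were at least 2-fold higher in eye field cells, and so were 6 of the 10 members. *gl* was 10.7-fold higher (10.0 to 11.3), *sev* 8.23-fold (7.11 to 9.55), *ro* 6.20-fold (5.36 to 7.19), *lz* 5.89-fold (5.14 to 6.77), *sens* 5.77-fold (4.62 to 7.25) and *ato* 3.55-fold (3.22 to 3.93). *chp* (1.96-fold, 1.56 to 2.47) and *B-H1* (1.92-fold, 1.79 to 2.06) came just under 2-fold. *phyl* was 1.06-fold higher (1.02 to 1.11), and the pooled level of *svp* was lower in eye field cells with a ratio of 0.84 (0.79 to 0.89). In the mean over cells the ratio of *svp* was 0.93. At equal depth *svp* was found in 5.07% of eye field cells and 5.32% of all other cells, with overlapping intervals. The lower level of *svp* was thus not resolved in shares at equal depth. Eye field cells held 29.9% of all UMIs. They held 81.9% of the UMIs of *gl*, 77.8% of *sev*, 72.5% of *ro*, 71.5% of *lz*, 71.1% of *sens* and 60.2% of *ato*, but only 31.2% of *phyl* and 26.3% of *svp*.

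Outside the eye field, members were read in neuroblasts (*wor* and *mira*), neurons (*nSyb* and *brp*) and glia (*repo*). Some of these cells also passed the eye field gate, 294 of 1666 neuroblasts, 636 of 6250 neurons and 156 of 842 glia, so only those without *eya* are given here (1353, 5556 and 677 cells, with medians of 12307, 5181 and 6372 UMIs). *gl* was found in 3.03%, 2.05% and 2.81% of them, *ro* in 0.961%, 0.576% and 0.295%, and *sens* in 0.222%, 0.216% and 0.295%. *ato* was found in 1.63%, 1.10% and 2.07%, and *lz* in 0.148%, 0.432% and 1.48%. Read as the background for these genes, each of these shares was below that of eye field cells with or without *elav*. At equal depth *gl* was found in 0.611% of neuroblasts, 1.003% of neurons and 0.391% of glia, and *sens* in 0 of 1309 neuroblasts, with an exact upper bound of 0.281%.

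Other members were as frequent in some of these classes as in the eye field. *phyl* was found in 17.7% of eye field cells with *elav*, 15.5% of those without, 20.5% of neurons (19.3% to 21.7%), 10.2% of neuroblasts and 6.25% of glia at equal depth. *svp* was found in 6.07%, 1.97%, 7.11%, 3.74% and 8.98% of the same classes. *B-H1* reached 5.88% in neuroblasts (4.67% to 7.30%), against 1.55% in neurons and 1.37% in glia, an interval that overlapped those of both eye field classes. *sev* was found in 2.93% of glia (1.65% to 4.79%), against 0.153% of neuroblasts and 0.191% of neurons, and in 3.24% of eye field cells with *elav*.

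Which cells without *eya* carried the members was read from co-detection, the number of cells with both genes over the number expected from both genes' frequency within 10 bins of depth. *sev* occurred with the glial genes *repo* (6.74 times the expected number, 4.95 to 8.97) and *moody* (6.03, 3.78 to 9.14). *repo* was present in 25.5% of the cells that had *sev*. The pair of features most co-detected with *sev* there was *NANS*, at 16.4, and *CG31706*, at 13.6. *B-H1* occurred with *mira* at 1.34 (1.17 to 1.52), with *wor* at 1.19 (1.05 to 1.35) and with *nSyb* at 0.74 (0.66 to 0.83). *phyl* occurred with *brp* at 1.44 (1.39 to 1.5) and with *repo* at 0.67 (0.56 to 0.81). *svp* was above expectation with both *repo* (1.86, 1.53 to 2.23) and *brp* (1.20, 1.12 to 1.28). *lz*, which is also known from crystal cells of the blood, occurred with the hemocyte gene *Hml* at 2.23 (1.22 to 3.74), from 14 cells. With the crystal cell gene *PPO1* it was at 1.83 (1.23 to 2.63). *PPO1* was found in 11.3% of all cells with *Hml*, and in 9.83% of neuroblasts and 8.86% of glia without *eya*. A UMI of *PPO1* therefore does not single out crystal cells here. *gl* and *lz* occurred with *so* at 5.08 (4.28 to 5.99) and 6.21 (4.75 to 7.98), and with each other at 8.48 (6.44 to 10.97).

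Among the 45 pairs of members in eye field cells, 24 were co-detected more often than expected, 2 less often, and 19 had intervals that held 1. The median ratio of the pairs was 1.34. For members paired with other features found in at least 5% of these cells, 11.5% of 70740 pairs were above and 1.97% below, with a median of 1.02. *gl* was above expectation with 8 of the other 9 members. The exception was *phyl*, with a ratio of 1.03 (0.95 to 1.11). With thinning, or with *so* beside *eya*, 6 of the 9 were above. *gl* with *ato* was then at 1.05 (0.71 to 1.51) or 1.12 (0.94 to 1.32), in place of 1.37, and *gl* with *chp* at 1.52 (0.41 to 3.89) or 1.17 (0.84 to 1.59), in place of 1.42.

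The pair furthest above expectation was *sens* with *ato*, both genes of R8. They shared 65 cells where 19.4 were expected, 3.36 times as many (2.59 to 4.28). Of the cells with *sens*, 42.2% had *ato*, and of those with *ato*, 15.05% had *sens*. *sens* was also above expectation with *ro*, at 2.19 (1.46 to 3.17), from 28 cells. *sens* with *svp* had the lowest ratio, 0.67 in 16 cells, but its interval (0.38 to 1.09) held 1. *sens* stood at 0.96 (0.58 to 1.5) with *lz* and at 1.01 (0.60 to 1.60) with *sev*.

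A further group was formed by *lz*, *B-H1* and *sev*. *lz* with *sev* was at 2.80 (2.38 to 3.28, 153 cells), *lz* with *B-H1* at 2.69 (2.38 to 3.03, 267 cells) and *sev* with *B-H1* at 2.002 (1.72 to 2.32, 179 cells). *svp* joined through *sev* at 2.03 (1.69 to 2.40), but with *lz* it was at 1.19 (0.95 to 1.47) and with *B-H1* at 1.14 (0.96 to 1.36). Most cells of these genes had *gl*, 83.9% of those with *sev*, 80.5% of those with *lz* and 70.9% of those with *B-H1*, against 32.1% of all eye field cells. For *ato* the intervals with these genes held 1, at 1.02 (0.78 to 1.32) for *lz*, 1.01 (0.82 to 1.23) for *B-H1* and 1.20 (0.92 to 1.54) for *sev*. With *B-H1* it was below expectation when cells were thinned, with 1 cell where 6.95 were expected (0.14, 0.0036 to 0.80), and in eye field cells without *elav*, at 0.42 (0.14 to 0.98).

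*phyl* divided the members. It was above expectation with *sens* (1.47, 1.21 to 1.78), *ro* (1.34, 1.15 to 1.54) and *ato* (1.21, 1.07 to 1.37), and below it with *B-H1* (0.83, 0.73 to 0.93) and *lz* (0.83, 0.71 to 0.96). Both low ratios lost their call when 2 UMIs of each gene were asked for, at 0.93 and 0.99, and when cells were thinned, at 0.74 and 0.58. That of *lz* also lost it with 2 UMIs of *eya*, at 0.87 (0.74 to 1.01).

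Eye field cells with *elav* had 24 pairs above and 1 below expectation, and those without had 9 above and 3 below. Of members paired with other features, 8.20% were above with *elav* and 3.50% without. All 9 pairs above without *elav* were also above with *elav*. *lz* with *B-H1* was at 2.37 with *elav* (2.07 to 2.71) and at 3.89 without (2.82 to 5.24), and *lz* with *phyl* at 0.89 with *elav* (0.76 to 1.04) and at 0.39 without (0.20 to 0.70). Without the called doublets 21 pairs were above and 2 below, and no pair changed from one side to the other in any of 7 alternatives. In all 7, 14 of the 24 pairs above stayed so, among them *sens* with *ato* (2.41 to 7.52), *lz* with *B-H1* (2.07 to 4.28) and *lz* with *sev* (1.96 to 4.30).

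**Figure D4:**
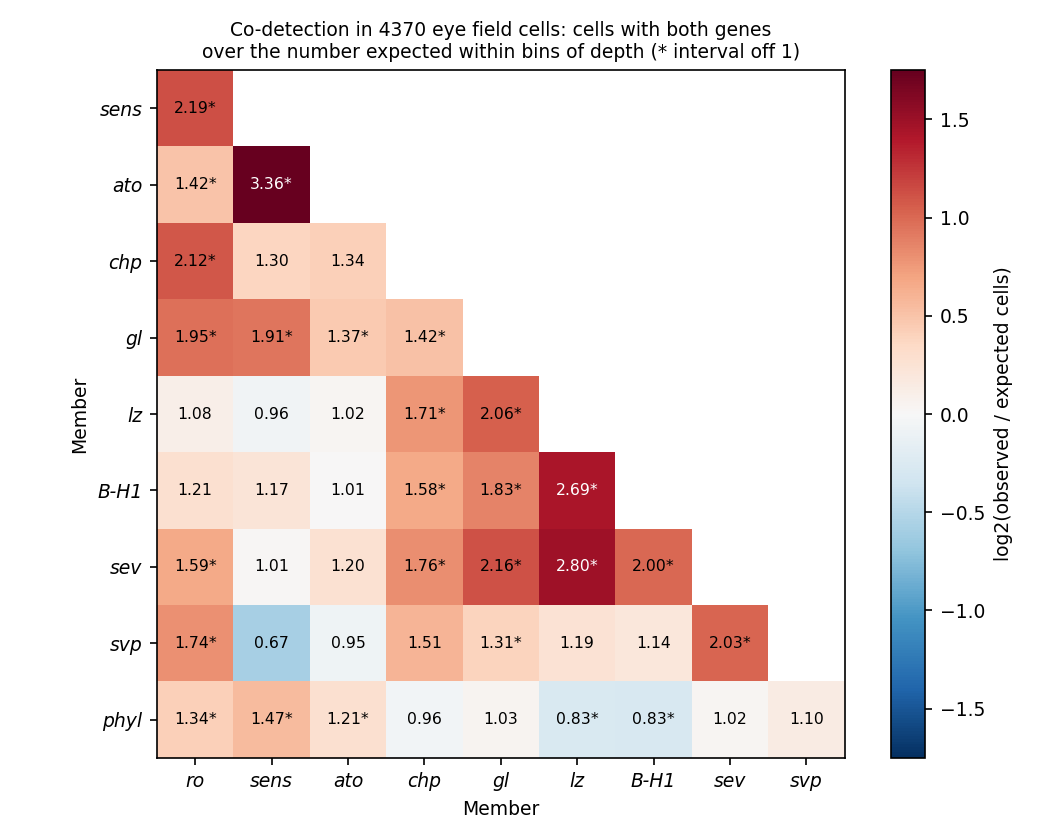
Cells with both genes over the number expected within 10 bins of depth, for the 45 pairs of members in 4370 eye field cells, printed in each square and coloured on a log2 scale, with an asterisk where the 95% Poisson interval excludes 1. The highest ratios were 3.36 for *sens* with *ato*, 2.80 for *lz* with *sev* and 2.69 for *lz* with *B-H1*.

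Genes of the same pathways were read beside the members. *boss*, the ligand for Sev that R8 presents, was sparse, with 24 UMIs in the eye field. It fell in 7 cells with *sens* where 0.696 were expected, a ratio of 10.1 (4.05 to 20.7), and in none with *ato* (up to 1.74). With *sev* itself it was at 1.52 (0.31 to 4.44). It was also found in 6 cells with *chp*, at 10.97 (4.03 to 23.9). *B-H2*, the neighbouring Bar gene, had its highest ratio with *B-H1* at 2.68 (2.41 to 2.97), followed by *lz* at 2.61 and *sev* at 2.196, and was below expectation with *phyl* at 0.85 (0.75 to 0.96). Phyl helps to remove the protein product of *ttk*, while only its RNA was read here. *ttk* was below expectation with *phyl* at 0.92 (0.86 to 0.98) and above it with *sev* (1.45, 1.29 to 1.62) and *lz* (1.42, 1.27 to 1.58). A low ratio with *phyl* was not particular to *ttk*, since *ey* was at 0.89 (0.81 to 0.96) and *h* at 0.90 (0.84 to 0.96). *sina*, the ligase gene, and *pros*, a factor of R7, cone cells and many neurons, had a UMI in 77.9% and 84.7% of eye field cells. So frequent a gene leaves a co-detection ratio little room above 1, and nothing was read from theirs.

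Some further genes were chosen after their values were seen. *sv*, which encodes the Pax factor of cone cells, was found with *sev* in 123 cells, 4.55 times the expected number (3.78 to 5.42), and with *lz* at 2.73 (2.17 to 3.39). *salm* had its highest ratio with *sev* at 2.30 (2.03 to 2.60). *sca*, which spaces R8 cells, was highest with *sens* at 1.76 (1.45 to 2.13) and *ato* at 1.60 (1.42 to 1.80). *rho*, a protease that releases the EGF receptor ligand Spitz, was highest with *sens* at 2.36 (1.91 to 2.88). *dac* and *dpp*, genes of the furrow, were above expectation with *ato* at 1.47 (1.32 to 1.64) and 1.64 (1.43 to 1.88). *dpp* was as high with *ro*, at 1.65 (1.39 to 1.94), and also above expectation with *sens* (1.38, 1.06 to 1.77) and *gl* (1.36, 1.25 to 1.49). *Optix*, which is on ahead of the furrow, was above expectation with *ato* alone, at 1.26 (1.11 to 1.42), and below it with *gl* at 0.80 (0.73 to 0.87) and *sev* at 0.79 (0.67 to 0.93). The neuroblast gene *wor* was below expectation with *gl* (0.73, 0.63 to 0.85) and *lz* (0.65, 0.48 to 0.85) and above it with *svp* (1.22, 1.01 to 1.46). *nSyb* was above it with *svp* (1.40, 1.23 to 1.59), *chp* (1.71, 1.28 to 2.24) and *phyl* (1.13, 1.04 to 1.22).

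**Figure D5:**
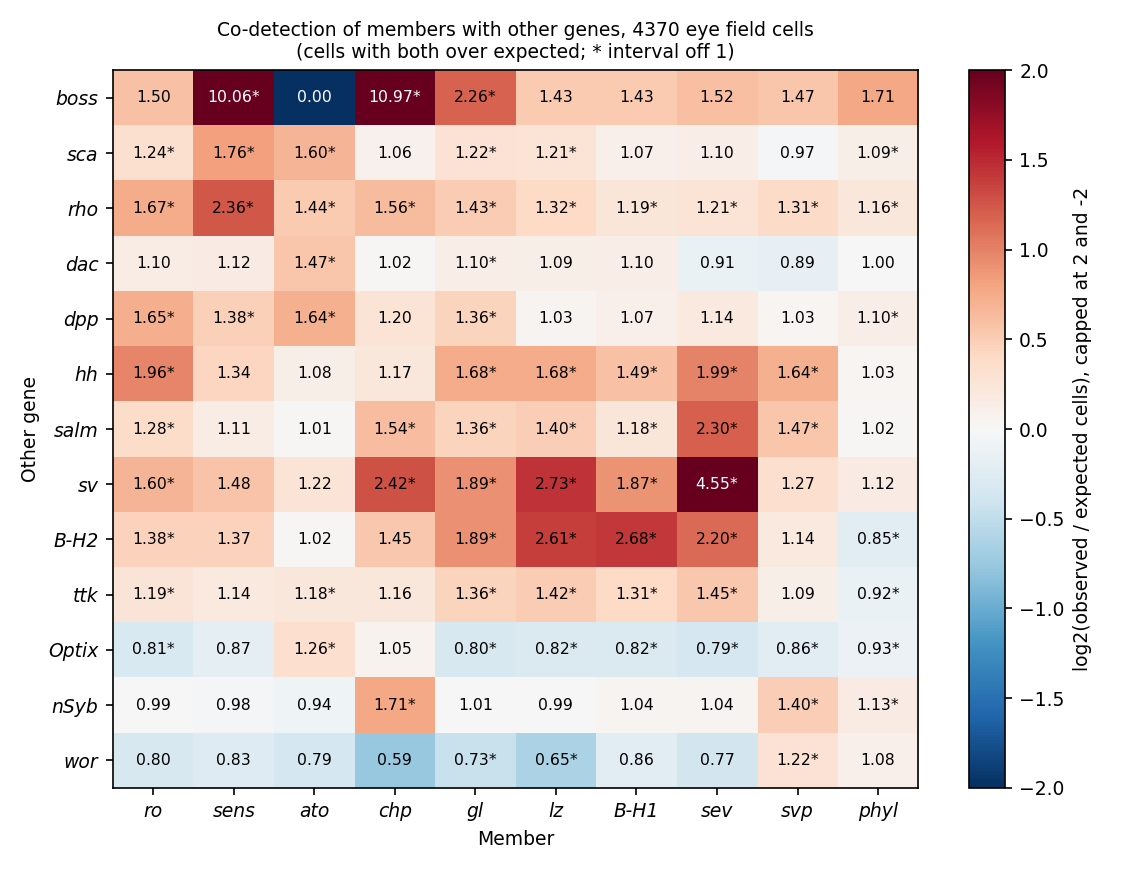
Cells with a member (columns) and another gene (rows) over the number expected within 10 bins of depth in 4370 eye field cells, coloured on a log2 scale capped at 2 and -2, with an asterisk where the 95% Poisson interval excludes 1. *boss* with *sens* stood at 10.1, *sv* with *sev* at 4.55 and *Optix* with *gl* at 0.80.

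By rule, the pair of other features with the highest ratio was taken for each member in eye field cells, among those in at least 5% of them. *sens* had *ru*, another protease of the Rhomboid family, at 3.13 (2.28 to 4.18) and *CG6026* at 3.05. *CG6026* was also highest with *ato*, at 2.42, followed by *Osi24* at 2.34. *ro* had *qua* at 3.46 (2.88 to 4.13) and *CG34244* at 3.01. *lz* had *CG5653* at 3.40 (2.98 to 3.86) and the cuticle gene *Cpr97Ea* at 3.39, and the same gene came after *B-H2* with *B-H1* at 2.58. *sev* had *CG14516* at 3.46 (3.01 to 3.96) and *fipi* at 3.41, and *svp* had the homeobox gene *Hmx* at 2.55 and *fipi* at 2.54. *gl* had the cadherin gene *Cad88C* at 2.24 and *CG9150* at 2.15, and *chp* had *Cad88C* at 3.55 and *nolo* at 3.16. *phyl* had *gcm2* at 1.51 and *ru* at 1.48. These were low beside the other members, but *phyl* was found in 42.2% of eye field cells, which leaves its ratios less room above 1. The median ratio over all such features was 1.004 to 1.048 for each member.

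The same rule was applied to cells without *eya*, among features found in at least 0.5% of them. *lz* had *CG5653* at 23.4 (16.5 to 32.3) and *CG9150* at 13.6, and *gl* had the same features at 12.0 and 10.3. *B-H1* had *B-H2* at 7.51 (6.72 to 8.37) and *CG5653* at 5.21. *sens* again had *ru*, at 9.16 (4.73 to 16.0), followed by *Achl* at 6.69. For *ato* the leading features were *CG10702* at 9.49 and *CG12481* at 6.27, and for *ro* they were *Fer1* at 4.90 and *retn* at 4.13. *svp* had *CG8837* at 3.39 and *CG9993* at 2.92, and *phyl* had *CG13594* at 1.78 and *CG16854* at 1.77. *chp* had *OSCP1* at 5.20 (2.69 to 9.09) from 12 joint cells and *Gr63a* at 3.09 (1.48 to 5.68) from 10, the fewest allowed. Joint cells were also few for *retn* with *ro* (11) and for *ru* and *Achl* with *sens* (12 each).

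Of 42 pathway genes listed beside the members, 41 had at least 100 UMIs. With *elav*, 4 of these 41 were at least 2-fold higher and none was at least 2-fold lower, against 8.28% and 0.304% of all features. The sparse *boss* was at 2.16 (0.53 to 19.0). The interval of the ratio was above 1 for 22 of the 42 and below 1 for 11, against 29.2% and 16.0% of all features. Of the 11 genes of photoreceptor subtypes, cone and pigment cells, 10 had an interval above 1. At equal depth 9 did, *sv* was at 1.58 (0.82 to 3.35) and *B-H2* was lower at 0.71 (0.51 to 0.995). *pros* was 4.95-fold (4.81 to 5.1) and *run*, a Runx gene of R7 and R8, 4.35-fold higher (2.87 to 6.93), and *oc* 1.97-fold. In eye field cells over all other cells, 47.3% of all features had a ratio with an interval below 1. The same held for 6 of the 11. Their ratios were 0.27 for *pros*, 0.32 for *Dr*, 0.43 for *run*, 0.44 for *ct*, 0.60 for *oc* and 0.69 for *dve*. Of these, *Dr*, *ct* and *dve* were named after their values were seen. Eye field cells with *elav* also held more cells with *nSyb* and *wor* and more called doublets, as given above, and the part of these in the ratios was not tested. Of the 12 genes of EGF receptor and Ras signalling, 7 were above 1 and 3 below. *ru* was 5.35-fold (3.96 to 7.40) and *rho* 1.99-fold higher (1.72 to 2.31), while *pnt*, which encodes an ETS factor of the pathway, had a ratio of 0.77 (0.74 to 0.81). Of the 9 genes of the furrow and R8, 3 were above and 3 below in pooled UMIs, and 1 above and 2 below at equal depth. *hh* was 1.87-fold higher (1.62 to 2.17), and *h*, on ahead of the furrow, had a ratio of 0.72 (0.69 to 0.76). None of the 7 eye field genes was above 1 and 5 were below, with *Optix* at 0.60 (0.58 to 0.63) and *so* at 0.82 (0.75 to 0.90). *sina* (1.19, 1.13 to 1.26) and *ttk* (1.14, 1.07 to 1.23) were slightly higher with *elav* in pooled UMIs, but *ttk* was at 0.91 (0.79 to 1.05) at equal depth. *ru* was the partner of the EGF receptor list furthest above 1 at equal depth too, at 5.69 (3.54 to 9.73).

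The Iroquois genes *mirr*, *ara* and *caup* mark the dorsal eye. Eye field cells with a UMI of any of them (1724 cells, median 13812.5 UMIs) were set beside those with none (2646 cells, median 8581 UMIs). Since depth differed, a cell with no UMI need not be ventral. As the genotype is open, dorsal position and any silencing of *ND-42* in the *mirr* domain cannot be told apart here. At equal depth *gl* was found in 22.3% of cells with and 13.3% of cells without an Iroquois UMI. *lz* was found in 3.98% and 1.78%, and *B-H1* in 6.70% and 3.34%. Pooled levels were 1.62-fold higher for *gl* (1.53 to 1.71), 2.22-fold for *lz* (1.88 to 2.63), 1.90-fold for *sev* (1.63 to 2.21) and 1.85-fold for *B-H1* (1.66 to 2.07). The intervals of the pooled levels of *ato* (1.08, 0.95 to 1.23) and *ro* (1.07, 0.91 to 1.25) held 1. At equal depth, however, *ato* was found in 4.71% of cells with and 2.99% of cells without an Iroquois UMI. In the same order *ro* was found in 2.84% and 2.17%, and *sev* in 3.50% and 2.39%. *phyl* went the other way, with 13.4% of cells with and 19.8% of cells without an Iroquois UMI. Its ratio was 0.61 (0.57 to 0.65). The pooled level of *svp* was also lower, at 0.88 (0.80 to 0.98). Its shares at equal depth, 5.31% with and 4.90% without an Iroquois UMI, went in the opposite direction.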

How the data were processed

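The authors prepared single-cell suspensions of dissected eye-brain complexes, and their processing notes name Cell Ranger and Seurat. The authors deposited 2 tables on a natural log scale, in which a cell's UMIs had been scaled to 10000 and 1 added before the log. The tables were identical, so 1 was used. The log was undone and each value divided by the lowest of its cell. This gave whole UMIs for 100% of values within 0.01, 243468253 in all.

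The members and gene lists were chosen with earlier results of these data known. Levels are pooled UMIs per 10000, and ratios of levels carry exact conditional binomial intervals. Shares carry exact Clopper-Pearson intervals and co-detection ratios Poisson intervals, all at 95%, for counting error only. Fold counts needed 100 UMIs over the cells compared. Cells were thinned to 3000 UMIs with a fixed seed, which left out 12785 shallower cells, among them 194 eye field cells with *elav* and 215 without. No filter was applied to cells. Doublets (4481 cells) were called by Scrublet in scanpy 1.11.5 and kept in the main values. Ratios and intervals were checked on simulated independent Poisson counts, without cell types or doublets. That check cannot show how the intervals hold in real cells. Python 3.11.15, numpy 2.4.6 and scipy 1.17.1 were used.

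Named were all members, and of the pathway genes found in at least 5% of eye field cells the 6 highest and 4 lowest ratios with over without *elav*, plus *B-H2*, *boss*, *pros*, *sina* and *ttk*. For each member the 2 features with the highest co-detection ratio were added, with at least 10 joint cells. UMIs from the 3′ end were not scaled by gene length, so levels are compared within a gene only. Sequences of the genes are not shown, and comparisons of genotypes were not made.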

Additional observations from a re-analysis of the deposited data

How the results depend on the processing

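No paired analysis was possible because the tables of both genotypes are identical and were taken as 1 library. Asking for 2 UMIs of *eya*, or for *so* beside *eya*, left 2395 or 1750 eye field cells in place of 4370, and 1807 or 1342 with *elav* in place of 3192. Any member was then found in 82.5% or 82.8% of cells with *elav* and in 68.5% or 66.4% of those without, in place of 73.2% and 58.1%. With thinning these shares were 42.4% and 38.5%, with 2 UMIs of a member 49.5% and 31.3%, and with the other 7 members, added after seeing the data, 44.6% and 35.7%. With *elav* the share was 70.4% without called doublets and 75.7% with 2 UMIs of *elav*. Members at least 2-fold higher with *elav* numbered 2 with 2 UMIs of *eya* or of *elav* and 3 with *so*, in place of 1. Pairs above expectation numbered 15 with thinning in place of 24. Pairs below numbered 1 with thinning (*ato* with *B-H1*, which was not among the 2) or with 2 UMIs of *eya*, and 0 with 2 UMIs of each member, in place of 2. Among members whose interval excluded 1, the ratio of levels turned round for *ato* with *so* (1.08), for *B-H1* with thinning (0.90) and in the mean over cells (0.82), and in that mean for *sev* (0.997) and *chp* (0.79). Ratios whose interval held 1 also crossed it: *lz* (1.04) was at 0.67 with thinning and 0.60 in that mean, *ro* (1.11) at 0.97 with 2 UMIs of *eya* and 0.91 in that mean, and *phyl* (0.97) between 0.92 and 1.15. The causes were not tested. Of 290 other shares, 173 moved, 143 of them down. With 1 library no replicate could be left out, and *chp* and *boss* are limited by depth.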
